A study of Homo sapiens with 15 samples.

Results

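The serum-response factor SRF, its partner ELK1 and 8 immediate early genes (EGR1, FOS, FOSB, FOSL1, JUN, JUNB, IER2 and DUSP1) were followed in HCT116 xenograft tumors that carried 5 different constructs. HCT116 is a human colon carcinoma line, and the tumors grew in athymic nude mice after transient transfection of the cells. The members were all probes, other than control spots, whose RefSeq accession mapped to 1 of these 10 genes, which gave 12 of the 34127 probes on the array and 10 of its 19483 named genes. ELK1 had 3 probes and every other gene had 1. There were 15 arrays of 1 tumor each, with 3 tumors for wild type Myc-tagged MOAP-1, 3 for its lysine-to-arginine mutant K264R, 3 for the mutant K278R, 3 for the empty vector and 3 for RASSF1A. MOAP-1 is a pro-apoptotic partner of the tumor suppressor RASSF1A. The design compares the constructs pairwise, to show which transcripts differ when MOAP-1 is overexpressed. HCT116 cells have their own MOAP-1 and RASSF1A, transfection reached only a share of the cells, and the vector tumors are the controls for all other constructs.

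SRF is a DNA-binding protein that recognizes the CArG box, a short A/T-rich element flanked by CC and GG. ELK1 is an ETS-domain protein that joins SRF on DNA and is phosphorylated by ERK. Together they switch on immediate early genes within minutes of a mitogenic signal, without new protein synthesis. EGR1 is a zinc finger transcription factor, FOS, FOSB, FOSL1, JUN and JUNB form the dimeric factor AP-1, IER2 is a small nuclear protein, and DUSP1 is the phosphatase that shuts MAP kinases off. SRF also serves a second set of genes, those of the actin cytoskeleton, with the MRTF cofactors in place of ELK1.

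The promoters show where the CArG box lies relative to the start of the gene. Of the 10 members, 9 have a promoter in the RefSeq table of GRCh38.p14, with 250 bases before and 50 bases after the start, and only SRF and EGR1 hold a CArG box there, 2 boxes each (a second listed start of SRF holds none). Of all 35116 promoters of that length, 1.293% hold one on either strand. The 150 bases before the start are given for SRF (chr6:43171119-43171268, plus strand), for EGR1 (chr5:138465329-138465478, plus strand) and, as a member without a CArG box in this window, for FOS (chr14:75278678-75278827, plus strand). Capitals mark the CArG boxes in SRF and EGR1 and the TATAAA element in FOS.
SRF: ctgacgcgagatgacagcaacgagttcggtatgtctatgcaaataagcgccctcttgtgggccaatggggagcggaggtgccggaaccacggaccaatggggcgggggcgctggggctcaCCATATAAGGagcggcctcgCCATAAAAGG
EGR1: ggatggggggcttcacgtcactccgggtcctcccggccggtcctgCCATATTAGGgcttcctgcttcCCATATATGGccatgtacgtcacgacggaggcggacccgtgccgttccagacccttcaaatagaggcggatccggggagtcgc
FOS: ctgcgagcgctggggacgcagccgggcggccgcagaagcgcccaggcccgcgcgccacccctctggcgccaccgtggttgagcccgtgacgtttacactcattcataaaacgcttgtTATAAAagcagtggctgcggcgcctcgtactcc
The boxes begin 30 and 10 bases before the start in SRF and 105 and 83 bases before it in EGR1. TATAAA on either strand is found in 11.53% of all promoters and begins 33 bases before the start in FOS, 30 in FOSB, 31 in JUNB and 30 in DUSP1, while in SRF it lies after the start on the other strand. DUSP1 also holds TGACGTCA, the element of the CREB and ATF proteins, which 1.848% of promoters hold. CCGGAA, a site that ETS proteins such as ELK1 can bind, is in SRF, FOSB and IER2 and in 17.25% of all promoters. Shorter ETS cores were not searched, so promoters without CCGGAA may still hold one. None of these 4 motifs overlapped another in the members, and a match describes only the letters.

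All 12 member probes were well above background on all 15 arrays. Levels are given as log2 of the processed signal with the 75th percentile of each array set to 0, and that percentile lay between 496.3 and 1402 signal units. The summed level of the 9 epithelial markers was 267.7 to 307.8 times the 75th percentile in vector tumors. It was 220.4 to 253.4 in MOAP-1, 200.4 to 226 in K264R, 181 to 259.2 in K278R and 234.3 to 264.3 in RASSF1A tumors. However, CEACAM5, VIL1, KRT20 and CDX2 were below that percentile on all arrays. MOAP1 itself was higher in MOAP-1 than in vector tumors by 0.87 (log2). RASSF1 differed by only -0.12 between RASSF1A and vector tumors (adjusted p = 0.671, limma), so its probe does not mark the RASSF1A tumors. The arrays came from 5 slides. K264R tumors were on slide 1, K278R tumors and MOAP-1 tumor 2 on slide 2, MOAP-1 tumors 1 and 3 on slide 3, vector tumors and RASSF1A tumor 3 on slide 4, and RASSF1A tumors 1 and 2 on slide 5, the only slide scanned on another day. Signals of slides 1, 2 and 3 were extracted on a different day from those of slides 4 and 5, so for MOAP-1, K264R and K278R against vector or RASSF1A the construct and the slide and extraction day cannot be told apart.

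SRF was the member that differed most between constructs. At its probe, A_24_P337657, MOAP-1 tumors had levels of -1.77, -1.63 and -1.85, against -3.87, -5.00 and -3.25 in vector tumors. The 3 MOAP-1 values lay close together and far above the scattered vector values, with no overlap. SRF was higher in MOAP-1 than in vector tumors by 2.29 ± 0.44 (log2, SE, n = 3 in each construct; adjusted p = 0.00205 by limma), which is 4.88-fold. K264R tumors had levels of -1.93, -1.89 and -2.10 and were higher than vector by 2.06 (adjusted p = 0.00292). K278R tumors had levels of -2.26, -2.27 and -2.07 and were higher than vector by 1.84 (adjusted p = 0.0124). The SD within a construct was 0.11 for each of the 3 MOAP-1 forms, against 0.89 for vector and 1.00 for RASSF1A.

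The lowest SRF levels were those of RASSF1A tumors 1 and 2, at -5.89 and -5.90, whereas the remaining RASSF1A tumor had -4.16. RASSF1A tumor 3 shared slide 4 with the vector tumors and lay within their range. The difference of RASSF1A from vector was -1.28 ± 0.44 (adjusted p = 0.348) over all tumors and -0.12 within the shared slide. Without RASSF1A tumor 3 it was -1.85 and passed the test (adjusted p = 0.0122), in a fit that called 1408 of all probes, beside 0 with all tumors. SRF was brighter in MOAP-1 than in RASSF1A tumors by 3.56 (adjusted p = 7.42e-05). Scanner signals for this probe were 257.6 to 283.7 units in MOAP-1 tumors, 20.03 to 80.8 units in vector tumors and 10.3 to 45.7 units in RASSF1A tumors, so the low group was dim. The normexp background model starts from the signal before background correction and adds an offset of 50 units to the corrected one. With it, the change of SRF in MOAP-1 tumors was 0.23 (adjusted p = 0.682), or 0.76 above the median of all probes, which moved to -0.53. With 17 spots of extreme local background left out of that model, it was 1.22 (adjusted p = 0.000209). Because the tumors are bulk tissue, fewer cells with the transcript and less transcript per cell cannot be told apart.

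ELK1 gave different answers at its 3 probes. At probe A_23_P171054 the levels were -4.39, -4.41 and -4.49 in MOAP-1 tumors and -5.82, -5.89 and -4.96 in vector tumors. The groups did not overlap, and vector tumor 3 lay nearest to the MOAP-1 tumors. The difference was 1.13 ± 0.22 (adjusted p = 0.00234), or 2.18-fold, and K264R and K278R tumors were higher than vector by 1.07 (adjusted p = 0.0024) and 1.02 (adjusted p = 0.00825). RASSF1A tumors, at -6.03, -6.15 and -5.54, did not pass the test against vector (-0.35, adjusted p = 0.526).

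At probe A_33_P3386099 the ELK1 levels were -3.62, -3.58 and -3.28 in MOAP-1 tumors and -3.81, -4.17 and -3.97 in vector tumors. The groups again did not overlap, but the difference of 0.49 ± 0.15 (adjusted p = 0.0273) stayed under the 1.5-fold limit. K278R differed from vector by 0.57 (adjusted p = 0.0216), also under that limit, and K264R by 0.26 (adjusted p = 0.213). At probe A_33_P3385002 the levels were -4.68, -4.25 and -4.28 in MOAP-1 tumors and -3.82, -4.38 and -4.36 in vector tumors. These groups overlapped, and the difference was -0.22 (adjusted p = 0.386). The 3 ELK1 probes were dim on all arrays, with signals of 8.63 to 64.2, 35.7 to 105.3 and 29.5 to 74.2 units in the order given. Under normexp the difference at A_23_P171054 was -1.20 (adjusted p = 0.209), which is -0.67 from the median probe. Without the spots of extreme background it was -0.06 (adjusted p = 0.716), which is 0.09 from the median probe of -0.15. Both settings include the offset of 50 units, beside signals of 8.63 to 64.2 units at this probe. The part of the offset in these values was not tested.

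**Figure D1:**
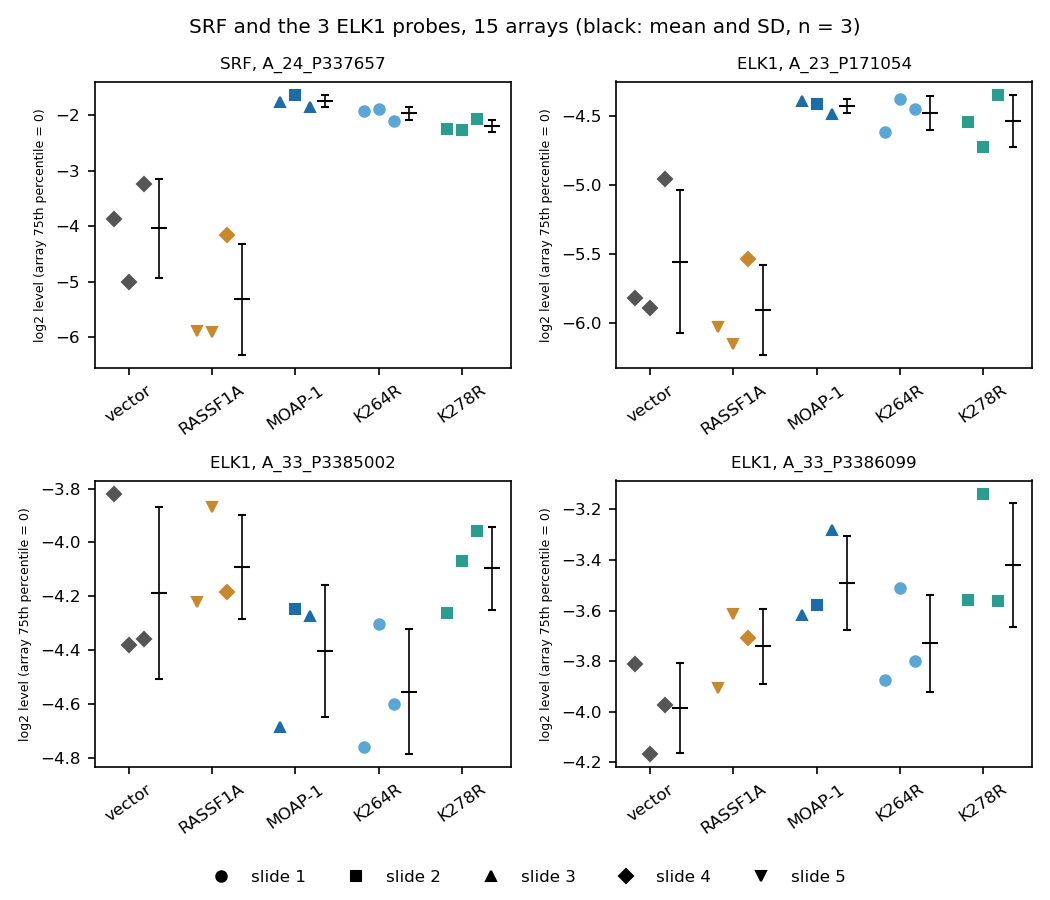
Levels of SRF and of the 3 ELK1 probes on the 15 arrays, as log2 relative to the 75th percentile of each array (vertical axis), by construct (horizontal axis). Each point is 1 tumor, its shape gives the slide, and the black bars are the mean and SD of 3 tumors. For SRF and ELK1 A_23_P171054 all 9 tumors on slides 1, 2 and 3 lie above all 6 tumors on slides 4 and 5.

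EGR1, the member besides SRF with 2 CArG boxes in its promoter, did not follow SRF. Its levels were 1.86, 1.87 and 1.46 in MOAP-1 tumors and 1.87, 2.72 and 2.14 in vector tumors, and the groups overlapped at 1 vector tumor. The difference was -0.51 ± 0.19 (adjusted p = 0.0618). K264R tumors (2.15, 1.98 and 2.09) and K278R tumors (1.84, 1.98 and 1.50) also overlapped the vector range and did not pass the test against vector. RASSF1A tumors had 1.86, 1.58 and 1.68, all below the vector tumors, with a difference of -0.53 (adjusted p = 0.352). The spread of the vector group was set largely by vector tumor 2. Without vector tumor 1, the lowest of the 3, the difference of MOAP-1 from vector was -0.70 and passed both limits (adjusted p = 0.0219). EGR1 was not called in that comparison under any other setting, including those that left out another tumor.

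Among the FOS proteins, FOS had levels of 0.38, -0.17 and -0.54 in MOAP-1 tumors and -0.48, -0.45 and -0.89 in vector tumors. The groups overlapped through MOAP-1 tumor 3, and the difference of 0.49 did not pass the test (adjusted p = 0.128). K264R and K278R tumors differed from vector by 0.02 and 0.01. RASSF1A tumors had levels of -0.86, -1.53 and -1.26, the first of them within the vector range, and differed from vector by -0.61 (adjusted p = 0.36). FOSB had levels of 0.69, 0.48 and 0.89 in MOAP-1 tumors and 1.08, 1.05 and 1.28 in vector tumors. All MOAP-1 tumors were below all vector tumors, and the difference of -0.45 ± 0.15 (adjusted p = 0.042) was under the 1.5-fold limit. In K264R tumors the difference was -0.46 (adjusted p = 0.0349), again under the limit, and in K278R tumors -0.16 (adjusted p = 0.476). FOSL1, an AP-1 partner that is often high in carcinoma cells, had levels of 0.55, 0.39 and -0.13 in MOAP-1 tumors and 0.28, 0.19 and 0.08 in vector tumors. These groups overlapped (difference 0.09, adjusted p = 0.776), while RASSF1A tumors (-0.44, -0.82 and 0.06) were all below vector, with a difference of -0.59 (adjusted p = 0.348). RASSF1A tumor 3 was close to the vector tumors, with which it shared a slide, and within that slide the difference was -0.13.

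The JUN proteins gave no call in any comparison. JUN levels were -0.44, -0.76 and -1.04 in MOAP-1 tumors and -0.44, 0.03 and -0.02 in vector tumors. The highest MOAP-1 tumor and the lowest vector tumor were nearly equal, and the difference was -0.60 ± 0.22 (adjusted p = 0.051). That value was at the threshold and passed under 6 other settings, such as quantile normalization (-0.64, adjusted p = 0.0433). JUNB lay between -2.46 and -1.76 on all arrays, with differences from vector of -0.02 in MOAP-1, 0.00 in K264R, 0.04 in K278R and -0.22 in RASSF1A tumors. The interval for MOAP-1 against vector, -0.33 to 0.29 (95%), did not reach 1.5-fold in either direction.

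IER2 had levels of 3.79, 3.63 and 3.75 in MOAP-1 tumors and 3.92, 4.22 and 4.09 in vector tumors. All MOAP-1 tumors were below all vector tumors, and the difference of -0.35 ± 0.12 (adjusted p = 0.0464) was under the 1.5-fold limit. The other constructs differed from vector by -0.15 to -0.07 and did not pass the test. DUSP1, the feedback phosphatase, was read from 10 spots per array. It had levels of 0.53, 0.42 and -0.24 in MOAP-1 tumors and -0.31, 0.06 and -0.15 in vector tumors, with overlap at MOAP-1 tumor 3 (difference 0.37, adjusted p = 0.241). RASSF1A tumors had -0.21, -0.92 and -0.55.

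**Figure D2:**
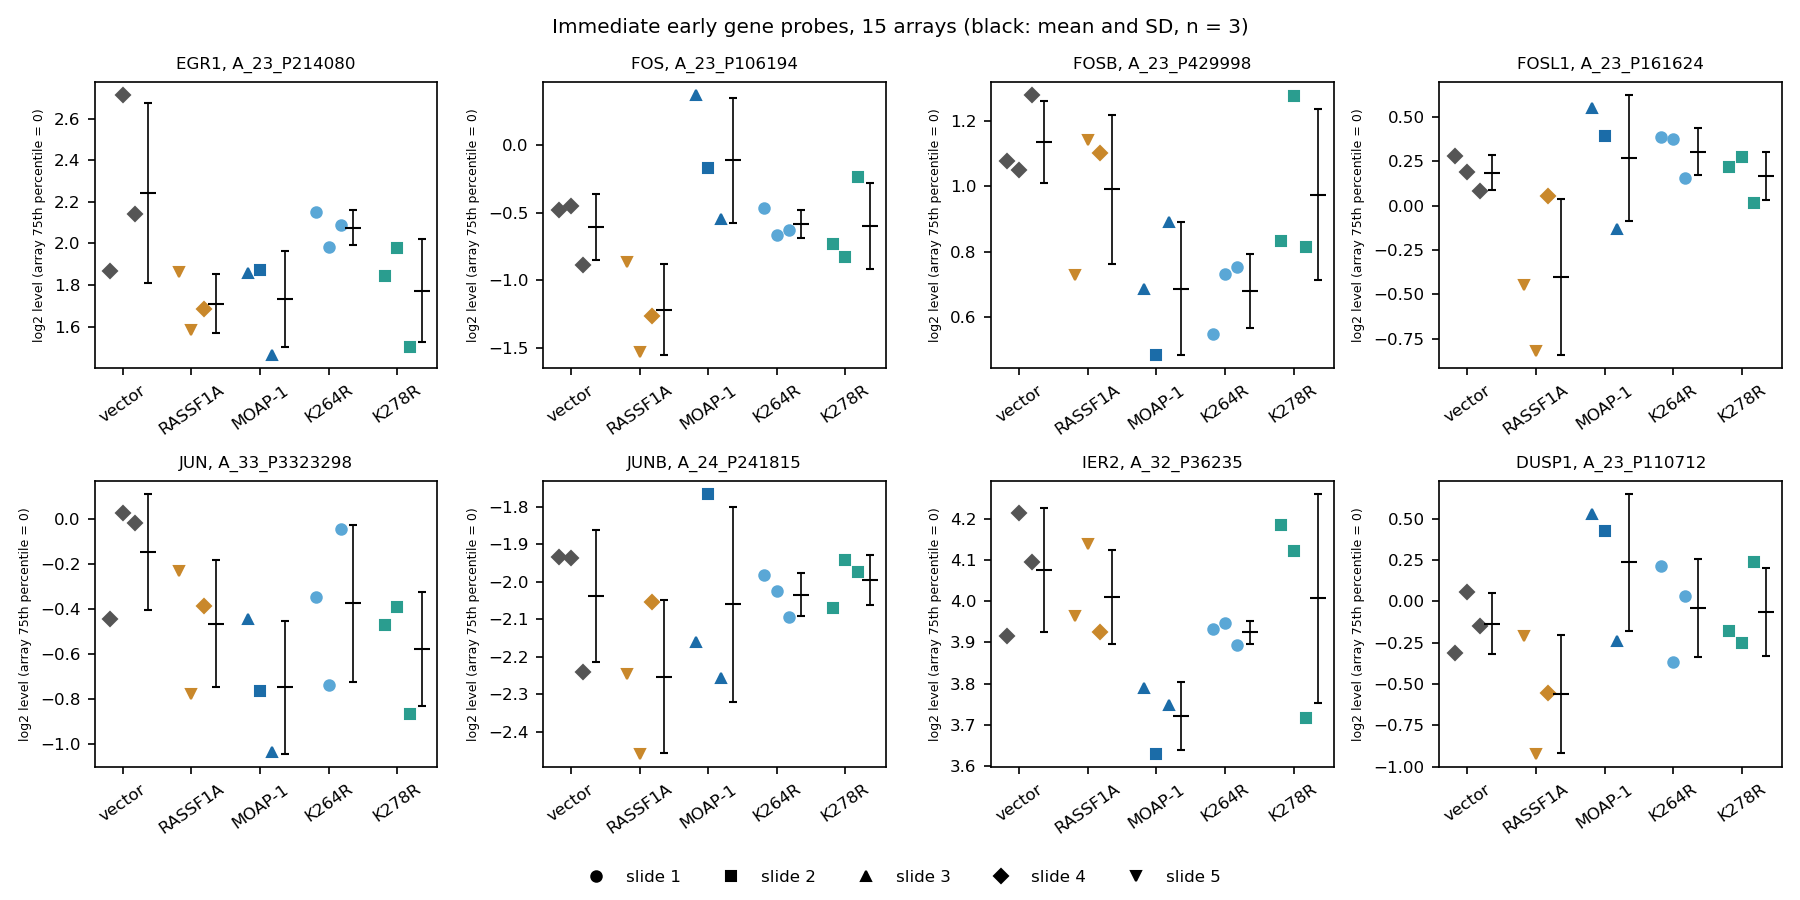
Levels of the 8 immediate early gene probes on the 15 arrays, as log2 relative to the 75th percentile of each array (vertical axes, each with its own range), by construct. Each point is 1 tumor, its shape gives the slide, and the black bars are the mean and SD of 3 tumors. The constructs overlap in most panels, and the RASSF1A mean is the lowest for EGR1, FOS, FOSL1, JUNB and DUSP1.

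A probe was called where the adjusted p over all 30585 probes tested was under 0.05 and the change was at least 1.5-fold. Against vector, 2 of the 12 member probes (SRF and ELK1 A_23_P171054, both higher) were called in MOAP-1 tumors, where 16.6% of all probes were called and 9.92% were called higher. The same 2 probes were called in K264R tumors (19.5% of all probes called, 9.25% higher) and in K278R tumors (10.9% called, 7.71% higher). These shares of the members were close to the background, and the 3 comparisons share the vector tumors. No member was called in RASSF1A against vector, where limma called 0% of all probes and 3695 had an unadjusted p under 0.05. The median change over the 12 probes was 0.03 in MOAP-1, 0.01 in K264R, 0.02 in K278R and -0.34 in RASSF1A tumors, beside medians over all probes of 0.02, -0.05, 0.06 and 0.02.

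**Figure D3:**
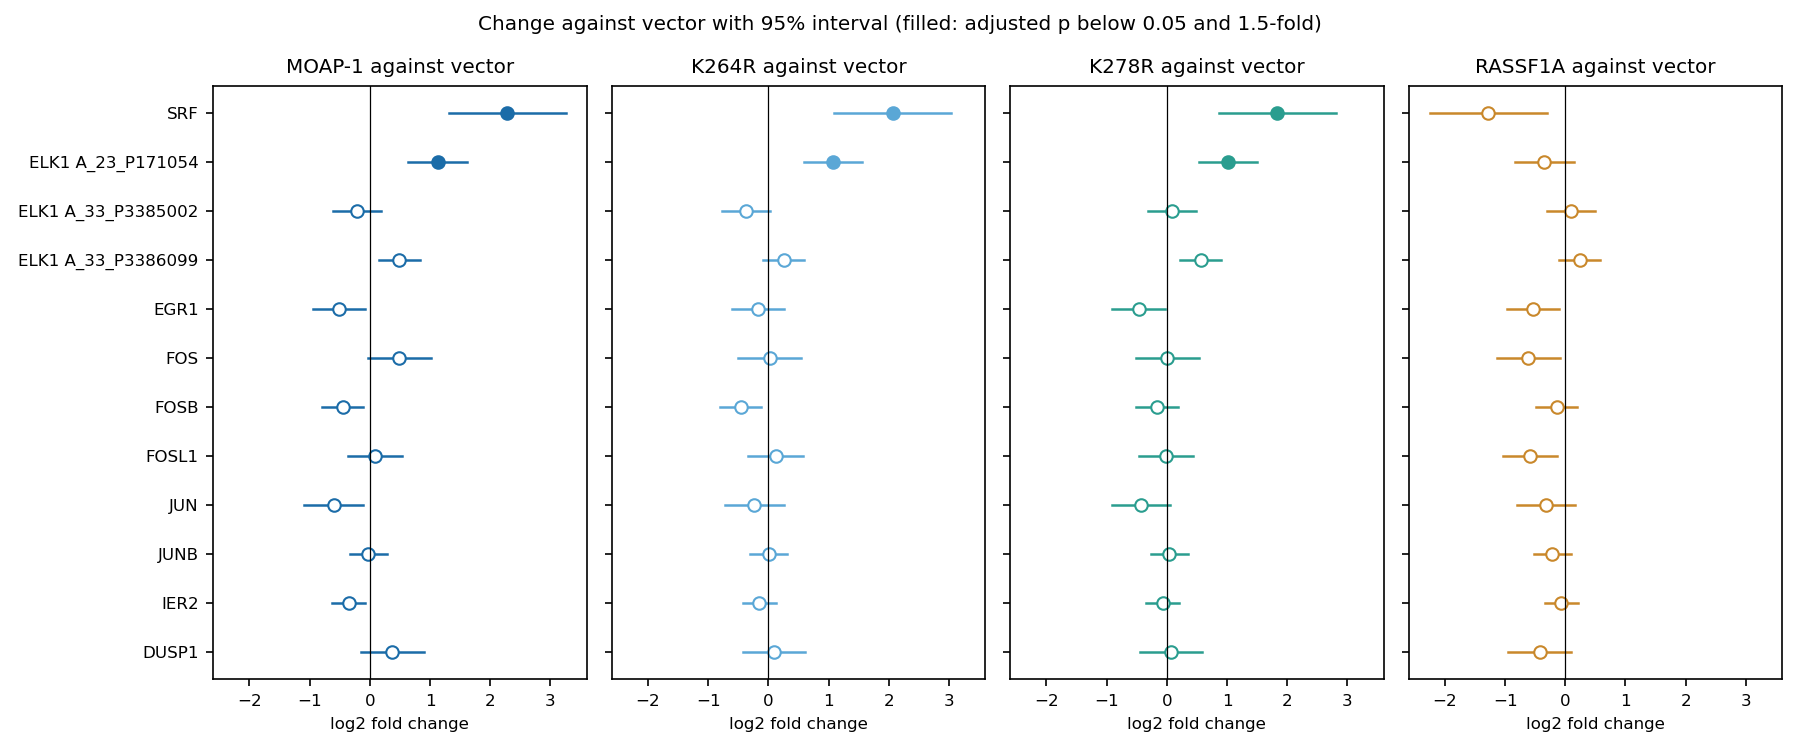
Log2 fold change of each member probe against vector (horizontal axis) with its 95% interval from limma, for the 4 other constructs (panels). Filled points passed both limits. SRF and ELK1 A_23_P171054 are the filled points in the MOAP-1, K264R and K278R panels, and no point is filled in the RASSF1A panel.

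Across the 5 constructs, a moderated F test passed for 4 of the 12 probes, beside 43.4% of all probes. These were SRF (adjusted p = 0.000111), ELK1 A_23_P171054 (adjusted p = 0.00026), ELK1 A_33_P3386099 (adjusted p = 0.0448) and FOS (adjusted p = 0.0223). SRF ran from MOAP-1 through K264R, K278R and vector to RASSF1A, and ELK1 A_23_P171054 ran in that order too. When the constructs were put in order for each probe, 2 of the 48 neighboring pairs were called apart. Both were K278R above vector, for SRF and for ELK1 A_23_P171054. They are the calls already given for that contrast, in which 10.9% of all probes were called.

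The lysine mutants were not called apart from wild type MOAP-1 at any member. None of the 12 probes was called between MOAP-1 and K264R (0.00327% of all probes called) or between MOAP-1 and K278R (0% called; 2821 probes with an unadjusted p under 0.05), and none between K264R and K278R (0.575%). SRF differed by 0.22 between MOAP-1 and K264R (95% interval -0.75 to 1.19) and by 0.45 between MOAP-1 and K278R (-0.52 to 1.42). These intervals include differences of over 1.5-fold, so they do not show equal levels. They rest on a spread pooled over all constructs, with an SD of 0.11 in each MOAP-1 form but 0.89 in vector and 1.00 in RASSF1A tumors. All MOAP-1 tumors lay above all K264R and all K278R tumors for SRF. Of the 12 probes, 3 had no overlap between MOAP-1 and K264R, with EGR1 and IER2 lower in MOAP-1, and 1 had none between MOAP-1 and K278R. How many of all probes had no overlap was not counted. MOAP-1 and K264R tumors shared no slide, so construct and slide cannot be told apart there. Within slide 2, which held MOAP-1 tumor 2 and the K278R tumors, the difference of MOAP-1 from K278R was 0.57 for SRF and 0.13 for ELK1 A_23_P171054.

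MOAP-1 tumors differed from RASSF1A tumors at more members than from vector. Of the 12 probes, 5 were called, all higher in MOAP-1, where 21.2% of all probes were called and 13% were called higher. Besides SRF and ELK1 A_23_P171054 (higher by 1.48, adjusted p = 0.000248), these were FOS (1.11 ± 0.24, adjusted p = 0.00262), DUSP1 (0.80, adjusted p = 0.0164) and FOSL1 (0.67, adjusted p = 0.0198). The FOS levels of the 2 constructs did not overlap, but those of DUSP1 and FOSL1 did. DUSP1 was no longer called when MOAP-1 tumor 1, MOAP-1 tumor 2 or RASSF1A tumor 2 was left out (adjusted p of 0.0637 to 0.078), nor FOSL1 without any 1 of these or of RASSF1A tumor 1 (0.057 to 0.0954). With scan day as a term, which sets RASSF1A tumors 1 and 2 apart, FOS stayed called, while the FOSL1 difference was 0.21 (adjusted p = 0.595). K264R tumors differed from RASSF1A at 4 probes (23.4% of all probes called, 12% higher), namely SRF, ELK1 A_23_P171054, FOS (0.63, adjusted p = 0.0462) and FOSL1 (0.71, adjusted p = 0.0141), and K278R tumors at SRF and ELK1 A_23_P171054 (16% called, 11.5% higher).

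The members varied together in part. Over the 15 arrays, which share slides and constructs, the level of SRF had a Pearson r of 0.97 with ELK1 A_23_P171054, 0.50 with ELK1 A_33_P3386099, -0.42 with ELK1 A_33_P3385002, 0.72 with FOSL1, 0.60 with FOS and -0.12 with EGR1. FOS and DUSP1 had r = 0.91, and EGR1 and JUN had r = 0.78. Among 16969 genes well above background on all arrays, the 3 most like SRF were EEF1A1 (0.996), which encodes a translation elongation factor, SRP68 (0.996), of the signal recognition particle, and GALNT11 (0.996), a glycosyltransferase. Their probes were higher in MOAP-1 than in vector tumors by 1.45, 1.23 and 1.39, which follows from choosing them by likeness to SRF on the same arrays. At 4 further EEF1A1 probes the change was 0.40 to 1.62. The 3 most like EGR1 were OVOL1 (r = 0.861), SNTB1 (0.861) and PAQR5 (0.86).

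Other genes of the pathway were taken from a list of 84 measured genes. In MOAP-1 against vector tumors 19 of them (22.6%) were higher at some probe and 2 (2.38%) lower, beside 13% and 6.62% of all genes. By part of the pathway, 1 of 7 SRF cofactors was called higher, 3 of 16 genes of the ERK cascade, 5 of 32 further immediate early genes, 1 of 9 ERK feedback inhibitors, and 9 of 20 cytoskeletal SRF targets, of which 2 more were lower. The median change of the further immediate early genes was -0.02, that of the cytoskeletal targets 0.17, that of the ERK cascade 0.27, that of the cofactors 0.19 and that of the feedback inhibitors -0.26. In RASSF1A tumors none of the 84 was called against vector. In K264R tumors 20 genes (23.8%) were higher and 8 (9.52%) lower than vector, beside 12.8% and 10.4% of all genes. In K278R tumors 16 (19%) were higher and 2 (2.38%) lower, beside 9.79% and 3.36%.

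MRTFA, the actin-regulated cofactor of SRF, was higher in MOAP-1 than in vector tumors by 0.93 (adjusted p = 0.00409). Its levels were -1.67, -1.68 and -1.92 in MOAP-1 tumors and -2.69, -3.00 and -2.37 in vector tumors, with no overlap between the groups. RPS6KA3, a kinase downstream of ERK, was higher by 0.83 at 1 probe and differed by -0.09 at its other. SPRED2, which restrains the RAS to ERK signal, was higher by 1.71 (adjusted p = 0.000809).

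Of the further immediate early genes, PHLDA1 had levels of 0.91, 0.73 and 0.57 in MOAP-1 tumors and -0.86, -0.78 and -0.46 in vector tumors. The groups were far apart for their spread, and PHLDA1 was higher by 1.44 ± 0.13 (adjusted p = 0.000153). MCL1, an anti-apoptotic BCL2 relative, was higher by 1.66 (adjusted p = 0.00104) and HBEGF, an EGF receptor ligand, by 1.07 (adjusted p = 0.00326). ATF3, a stress-induced ATF family factor, was higher by 1.39 at 1 probe (adjusted p = 0.0043), but differed by 0.00, -0.37 and -0.49 at its other 3. GADD45B, a stress gene of growth arrest, was lower in K278R than in vector tumors, with a difference of -0.67. In MOAP-1, K264R and RASSF1A tumors it differed from vector by -0.37, -0.33 and -0.34, none of them called. It was not called between MOAP-1 and K278R (0.30, adjusted p = 0.54 by limma). Of the cytoskeletal targets, MYL9, a myosin light chain, was higher by 1.15 (adjusted p = 0.00445). TPM1, a tropomyosin, was higher by 1.45 and 1.21 at a pair of probes and by 0.22 at the third (adjusted p = 0.827). At the third the levels were -1.55, -1.38 and -1.64 in MOAP-1 and 0.32, -2.87 and -2.67 in vector tumors, so vector tumor 1 lay far from the other vector tumors. ACTB, cytoplasmic actin, was higher by 1.50 at its dimmer probe (adjusted p = 0.000196), at levels of 3.17, 3.28 and 3.003 in MOAP-1 and 1.71, 1.44 and 1.79 in vector tumors. At its brighter probe, with levels of 6.65, 6.76 and 6.52 against 6.67, 6.77 and 6.43, the ACTB difference was 0.02 (adjusted p = 0.929). FHL2, an SRF target and partner, was higher by 1.00 at 1 probe and differed by -0.09 at its brighter one.

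Probes of a gene often differed in whether they were called. Among genes with several probes and at least 1 call in MOAP-1 against vector, all probes were called in the same direction in 127 of 1494 (8.5%), and 46 had probes called in both directions. The remaining genes include those with a probe that moved the same way but missed a limit. In the pathway list all probes were called for 1 of 11 such genes. The array carries human probes and the host is a mouse, so which cells gave the signals of host tissue markers was not tested. Of these markers, 2 of 8 measured fibroblast and smooth muscle genes were called higher in MOAP-1 than in vector tumors, 1 was higher in K278R and 1 lower in K264R. Among all genes, 13% were called higher in MOAP-1, 9.79% higher in K278R and 10.4% lower in K264R. Of 5 leukocyte genes 1 was higher in MOAP-1 and 1 in K278R, and no endothelial (4 measured) or erythroid (2 measured) gene was called against vector. The summed level of the 8 fibroblast and smooth muscle genes, of 9 in the list, was 8.31 to 46.4 in MOAP-1, 13.5 to 44.1 in K278R, 6.92 to 21.8 in K264R, 5.35 to 12.6 in vector and 11.6 to 16.3 in RASSF1A tumors, in units of the 75th percentile. LUM was above background on none of the arrays. The part of these cells in the cytoskeletal changes was not tested.

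**Figure D4:**
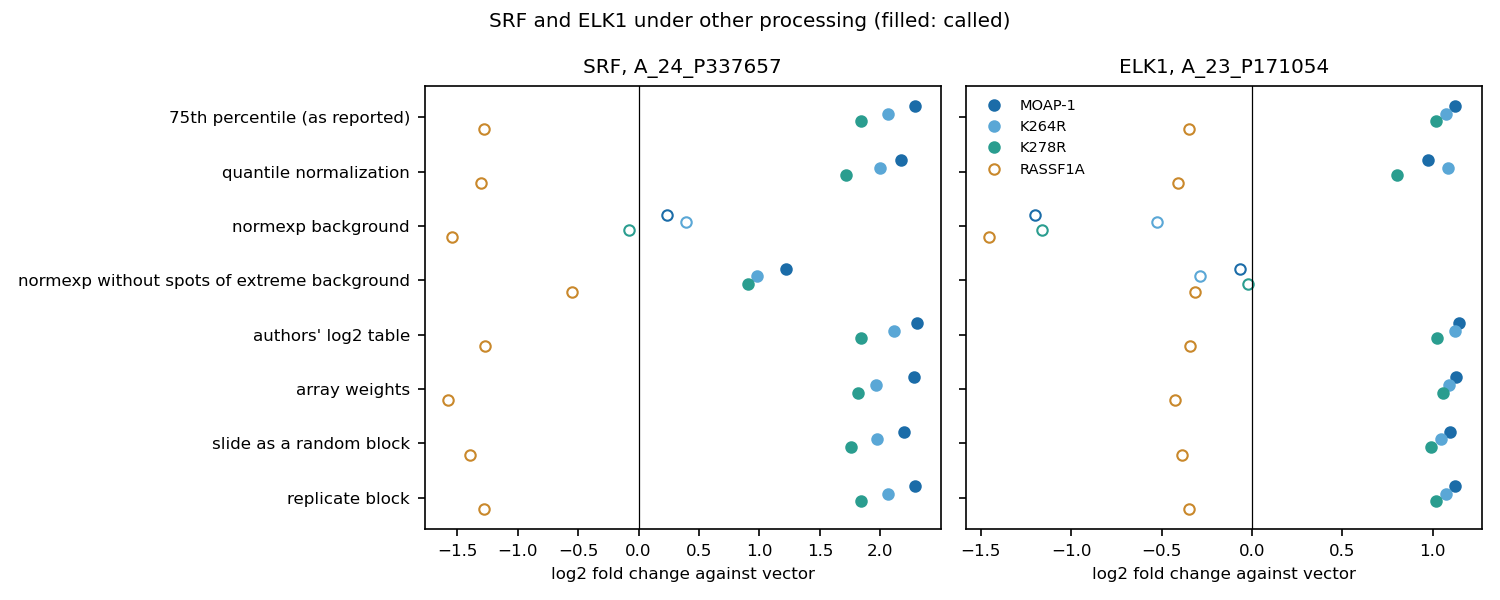
Log2 change against vector (horizontal axis) of SRF and of ELK1 A_23_P171054 in the 4 other constructs (colors), under the processing reported and 7 alternatives (rows). Filled points were called. The points of the MOAP-1, K264R and K278R tumors lie near the reported values in all rows except the 2 normexp rows, where ELK1 has no call.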

How the data were processed

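Single-color Agilent arrays of 15 tumors were used. The authors deposited processed-signal intensities from Feature Extraction (9.1 per the labels, 10.5.1.1 per the file headers), background-corrected within each array but not normalized between arrays, along with median spot and local background intensities. They also deposited log2 values from GeneSpring, scaled to the 75th percentile and centered per probe. In 8 of its columns the values match the array they are labelled for, and in 7 they match another tumor of that construct, so that table served only as an alternative. Quality flags deposited with the signals were used to drop non-uniform spots and to find probes well above background.

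Here the processed signals were log2-transformed, each array's 75th percentile was set to 0, and the spots of a probe were averaged. A probe was kept (30585 of 34127) where it was well above background in all 3 tumors of a construct. All 15 arrays entered 1 limma fit (3.58.1, R 4.3.3) with construct as the term and 10 residual degrees of freedom, with Benjamini-Hochberg adjustment over the kept probes. The code was tested on simulated data. Names came through RefSeq accessions (25422 probes). The tumors are called independent in the study's methods, and array data carry no counting depth, so their number limits the precision. The members and lists were chosen with earlier results of these data known. Named genes were all member probes, the 12 list genes with the smallest p among those called in MOAP-1 against vector (1 of them is not reported here), up to 4 for each other contrast, and the 3 genes most like SRF and EGR1. Alternatives were other scalings, background models, filters, tests, blocks and left-out tumors.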

Additional observations from a re-analysis of the deposited data

Results flagged for a closer look

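Some members differed between constructs other than vector by a direct contrast of the same limma fit. These comparisons share the RASSF1A tumors. SRF was higher than in RASSF1A tumors by 3.56 in MOAP-1, 3.34 in K264R and 3.11 in K278R tumors (log2). ELK1 at probe A_23_P171054 was higher than in RASSF1A tumors by 1.48 in MOAP-1, 1.42 in K264R and 1.37 in K278R tumors. FOS was higher than in RASSF1A tumors by 1.11 in MOAP-1 and 0.63 in K264R tumors, FOSL1 by 0.67 and 0.71 in the same order, and DUSP1 by 0.80 in MOAP-1 tumors. In all of them the constructs lay on different slides and were extracted on different days, so construct and slide cannot be told apart.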

How the results depend on the processing

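For called member probes, the count in MOAP-1, K264R and K278R against vector (2 each as reported) was 0, 0 and 0 under normexp and under the methods' t-test after Benjamini-Hochberg, where all probes gave 522, 914 and 1 calls under normexp and 2627, 4324 and 0 by that test. With spots of extreme background left out of normexp it was 1 in MOAP-1, 1 in K278R and 2 in K264R, where ELK1 A_33_P3385002 (lower, -0.66) took the place of ELK1 A_23_P171054. All probes then gave 2752, 1304 and 8981 calls in that order. With only the arrays compared it was 0 in K278R, where all probes gave 1171 calls. Leaving out 1 tumor gave 2 to 4 in MOAP-1, 2 in K264R and 1 to 4 in K278R. The highest was without vector tumor 1, where all probes gave 4620 calls in MOAP-1 and 2783 in K278R. The 1 was without vector tumor 2, where all probes gave 1687 calls in K278R and SRF there had an adjusted p of 0.0586. RASSF1A against vector (0) ranged from 0 to 2. The 2 came without RASSF1A tumor 3, where 1408 of all probes were called, beside 0 as reported. MOAP-1 against K264R gave 1 with array weights (JUN, -0.62), where 1410 of all probes were called, beside 1 as reported. MOAP-1 against RASSF1A (5) gave 2 under normexp, 3 with scan day as a block, 3 and 2 by the methods' t-test unadjusted and adjusted, and 3 to 5 without 1 tumor. The F test (4) gave 0 under normexp, 2 with scan day and 2 to 5 without 1 tumor. ELK1 A_23_P171054 against vector reversed under normexp to -1.20, -0.53 and -1.16 in MOAP-1, K264R and K278R, and to -0.064, -0.29 and -0.0225 with extreme spots left out, and SRF in K278R to -0.083 under normexp. Relative to the median of all probes, which normexp lowered, the ELK1 changes were -0.67, -0.22 and -0.70, then 0.0905, -0.0085 and 0.0662 with extreme spots left out, and SRF in K278R was 0.38. The 3 positive values were above the median probe, though below 0 before that median was taken off. Those for ELK1 in MOAP-1 and K278R stand beside 1.13 and 1.02 as reported. Both normexp settings add an offset of 50 units to the signals, and the cause of the reversals was not tested. The replicate numbers were not used as pairs in the reported fit. Same-number pairs of tumors had a median correlation of 0.11 (-0.25 to 0.37), with 15 of 30 above 0.1. Different-number pairs had a median of -0.04 (-0.47 to 0.45), with 19 of 60 above 0.1. The replicate block left the counts at 2, 2, 2, 0, 0, 0 and 5. Slide as a fixed block could not be fitted for constructs that share no slide. Each shared slide held only 1 tumor of a construct (MOAP-1 tumor 2 on slide 2, RASSF1A tumor 3 on slide 4). A test there could not decide whether a member differed.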
